A study of Mus musculus with 8 samples.

Results

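The genes described here encode the first steps of T cell receptor (TCR) signaling: the receptor chains Cd3e and Cd247, the Src-family kinases Lck and Fyn, the kinase Zap70, the adaptors Lat and Lcp2, the phospholipase Plcg1 and the phosphatase Ptprc. These 9 genes were taken by symbol out of 28239 symbols in the table of counts. The libraries came from Tregs that had been differentiated for 2 days from naïve CD4+ T cells of the spleen with IL-2, TGF-β and beads carrying antibodies to CD3 and CD28. There were 4 libraries from wild type (WT) mice and 4 from Alox15-/- mice, all on a C57BL/6 background. The methods give an age of 10 to 12 weeks and both sexes for the mice of the study as a whole, without tying them to these libraries. The naïve cells had been enriched by negative selection on magnetic beads. The series design and the methods describe these cultures, while the extraction label speaks of spleens kept in lysis buffer and then of RNA from Tregs, so how spleen material entered the libraries, if it did, is not clear from the sources. The design names 4 mice per group without tying a library to a mouse, so p-values measure the spread between these libraries, which may in part be technical.

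The receptor has no enzymatic activity of its own. When it is engaged, LCK phosphorylates tyrosine motifs in the tails of the CD3 and zeta chains, ZAP-70 docks there and is activated in turn, and it phosphorylates the adaptors LAT and SLP-76, which assemble a complex that activates PLCγ1. PLCγ1 then releases the messengers for calcium entry and for the Ras and protein kinase C arms. The strength of these signals, together with IL-2 and TGF-β, is known to affect whether a naïve CD4+ T cell takes up FOXP3 expression.

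Libraries held 3723151 to 9538962 counts. Levels are given in CPM, counts scaled to a library size of 1000000. Alox15, the targeted gene, had 255 to 454 counts (67.2 ± 3.18 CPM) where the label was Alox15-/- and 12 to 77 counts (5.31 ± 3.61 CPM, mean ± SD of 4 libraries) where it was WT, against the direction of a lost transcript. The assay counts tags near the 3′ end and the sources used here do not give the deleted part of the gene, so this level does not check the labels by itself. If the labels were exchanged, every direction given here would turn, so the groups are named by their labels throughout. T cell markers were present in all libraries, with Cd4 between 209.8 and 352 CPM, Foxp3 between 71.7 and 114 CPM under the label Alox15-/- and 93.4 and 195 CPM under the label WT (log2 fold change -0.42, adjusted p = 0.655), and Trac between 399.8 and 616 CPM. The Foxp3 value of 195 CPM was that of WT replicate 3, with WT replicates 1, 2 and 4 at 109, 102 and 93.4 CPM. Markers of other cells were higher in every library labelled Alox15-/- than in any labelled WT for erythroid cells (7 of 8 listed genes in the table, summed 927 to 3508 against 53.5 to 142 CPM, 5 of 6 tested genes past the adjusted threshold of edgeR's test), mast cells and basophils (9 of 9, 111 to 332 against 27.0 to 47.6 CPM, 7 of 7), eosinophils (8 of 8, 21.4 to 74.1 against 1.25 to 10.4 CPM, 2 of 2), myeloid cells (11 of 11, 40.0 to 330.3 against 7.97 to 17.6 CPM, 4 of 6), platelets (5 of 5, 3.14 to 13.8 against 0.641 to 1.51 CPM, 0 of 1) and NK and γδ T cells (10 of 10, 89.8 to 163 against 29.5 to 52.0 CPM, 5 of 5). B cell markers (6 of 6) summed to 5.55 to 8.14 CPM against 8.31 to 21.2 CPM, with 1 of 2 tested genes lower past the threshold, and both CD8 genes to 12.1 to 21.9 CPM against 21.5 to 31.8 CPM, with 0 of 2. The T cell and Treg markers, 9 of 9, summed to 3619 to 3972 against 3827 to 3925 CPM with 0 of 9 past the threshold. No listed marker in the table was at 0 in all libraries. Within the list for NK and γδ T cells, the 5 genes past the threshold were Klrd1 and the γδ receptor genes Trdc, Tcrg-C1, Tcrg-C2 and Tcrg-C4. The other 5, the NK genes Ncr1, Klrb1c, Klra4, Klra7 and Klra8, were below the filter, overlapped between the groups and were at most 2.99 CPM in any library. The highest value was in a library labelled Alox15-/- for 4 of them and in one labelled WT for Ncr1. The negative selection was meant to remove cells other than naïve CD4+ T cells, and the part of other cells in the levels given here was not tested.

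To ask whether the proximal TCR machinery differed between the groups, counts were scaled to CPM with the TMM factors of edgeR, and each gene was read from a quasi-likelihood fit over the 12700 genes that reached 2 CPM in at least 4 libraries. All 9 genes passed this filter on low counts. At an adjusted p under 0.05, 0 of the 9 genes were called, where 1.24% of all genes tested were (1.05% with higher and 0.197% with lower values in the libraries labelled Alox15-/-). Since these are bulk samples, fewer cells of a type and less RNA per cell cannot be told apart. At an unadjusted p under 0.05, 1 of the 9 was found, Lcp2, with lower values, against a background of 7.84% in either direction and 3.38% lower. This count was 0 with upper-quartile scaling, without Alox15-/- replicate 2, WT replicate 2 or WT replicate 3, and without both Alox15-/- replicates 2 and 3. It was 2 with library totals and 3 without Alox15-/- replicate 1. DESeq2, limma-voom and the robust form of edgeR's test also called 0 of the 9, and the smallest adjusted p was 0.574 in edgeR's test, 0.563 in its robust form, 0.654 in DESeq2 and 0.546 in limma-voom.

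The estimates were precise. The median standard error of the log2 fold change was 0.11 over the 9 genes and 0.16 over all genes tested. In 8 of the 9 genes the 95% interval lay within a log2 fold change of 0.5 on either side of 0, as it did for 54.9% of all genes tested, a limit chosen after the values were seen. Over all 9, the intervals reached from 0.703-fold at the lowest, for Zap70, to 1.22-fold at the highest, for Lat. Estimates lay below 0 in 7 genes (6 with upper-quartile scaling) and above 0 in 2, with a median log2 fold change of -0.18, whereas the median over all genes tested was -0.0075 and 51.8% of them lay below 0. This median was closer to 0 without WT replicate 4 (-0.095) and without Alox15-/- replicate 3 (-0.11), and 6 of the 9 genes lay below 0 in each of these fits.

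**Figure D1:**
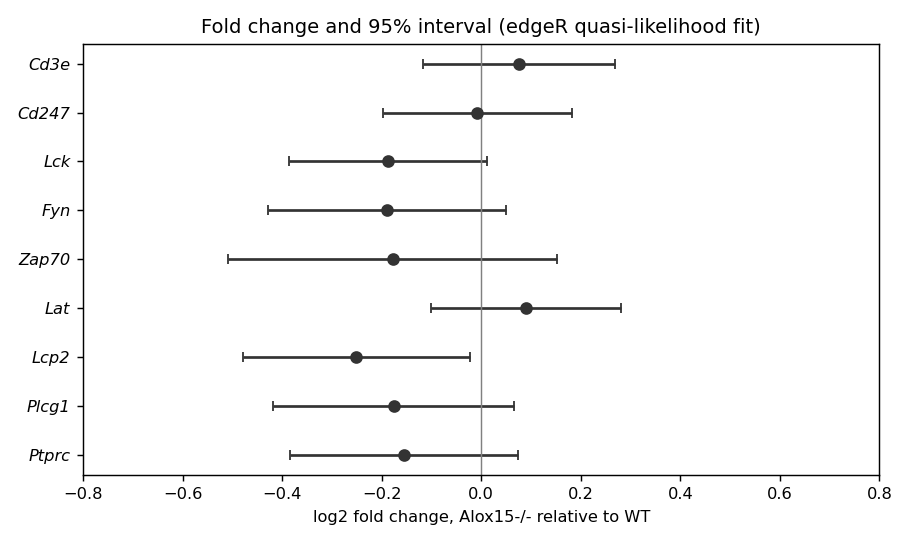
Log2 fold change of each gene (x axis, label Alox15-/- over label WT), with dots for the estimate and bars for the 95% interval of the edgeR quasi-likelihood fit on 4 libraries against 4. The intervals of 8 genes cross 0, and that of Lcp2 ends at -0.023 without passing the adjusted threshold.

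The genes follow in the order of the pathway, with positions on GRCm38 from GENCODE M21. Cd3e (ENSMUSG00000032093.7; chromosome 9, 44998740 to 45009627, minus strand) encodes CD3ε, which pairs with the CD3γ and CD3δ chains in the receptor complex. Cd3e was at 274, 250.2, 296 and 260.3 CPM in replicates 1 to 4 labelled Alox15-/- and 259.8, 252, 265 and 249 CPM in replicates 1 to 4 labelled WT. The groups overlapped, with the highest value in Alox15-/- replicate 3 and the lowest in WT replicate 4 (log2 fold change 0.075, 95% interval -0.12 to 0.27, adjusted p = 0.889). Cd247 (ENSMUSG00000005763.15; chromosome 1, 165788681 to 165877277, plus strand) encodes the zeta chain, which carries most of the tyrosine motifs of the complex. Cd247 was at 260.0, 241, 228 and 232 CPM in replicates 1 to 4 labelled Alox15-/- and 241, 245, 251 and 229.6 CPM in replicates 1 to 4 labelled WT. The groups had almost the same mean, 240.3 ± 14.2 against 242 ± 8.91 CPM as mean ± SD of 4 libraries each, and the estimate changed sign between settings (log2 fold change -0.0079, 95% interval -0.20 to 0.18, adjusted p = 0.993). The Cd247 gene shares 3007 exonic bases with Pou2f1 on the opposite strand, 131 of them in its last 500 exonic bases, and the end of at least 1 of its transcripts lies within Pou2f1. The sources do not say whether counting used the strand. Over all libraries 1125 reads were counted on Pou2f1 and 11430 on Cd247.

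Within each library, the ratio of Cd247 to Cd3e counts does not depend on how libraries are scaled. This ratio was 0.950, 0.963, 0.770 and 0.893 in replicates 1 to 4 labelled Alox15-/- and 0.926, 0.975, 0.946 and 0.922 in those labelled WT. Alox15-/- replicate 3 had the lowest ratio and the other libraries lay close together. The difference of the log2 ratio was -0.081 (two-sided exact permutation test, p = 0.4, adjusted over 3 ratios 0.6), where the smallest p that 4 against 4 allows is 0.0286. Without Alox15-/- replicate 3 this difference was -0.011.

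Lck (ENSMUSG00000000409.14; chromosome 4, 129548344 to 129573641, minus strand) encodes the kinase that starts the cascade. RefSeq gives Lck a pair of start sites 15269 bases apart, and since tags near the 3′ end are shared by transcripts from both, the counts do not say which start was used. The 250 bases before each start are shown from GRCm38.p6, 5′ to 3′ on the minus strand, for the upstream site (chr4:129573642-129573891) and the downstream site (chr4:129558373-129558622). AGGAAG or its reverse complement CTTCCT, a core recognised by ETS-family factors, is in capitals.
Lck upstream start: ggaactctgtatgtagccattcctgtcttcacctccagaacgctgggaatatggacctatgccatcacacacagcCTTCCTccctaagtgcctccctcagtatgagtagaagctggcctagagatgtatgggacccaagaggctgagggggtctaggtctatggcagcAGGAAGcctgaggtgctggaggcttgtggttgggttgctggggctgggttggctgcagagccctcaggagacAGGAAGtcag
Lck downstream start: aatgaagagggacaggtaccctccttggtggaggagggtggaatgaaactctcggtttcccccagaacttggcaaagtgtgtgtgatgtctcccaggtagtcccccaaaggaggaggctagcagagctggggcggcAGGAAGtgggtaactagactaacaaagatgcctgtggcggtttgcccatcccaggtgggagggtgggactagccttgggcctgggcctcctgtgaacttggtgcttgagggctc
In these windows, AGGAAG on either strand occurs 3 times before the upstream start and 1 time before the downstream start.

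Lck was at 527, 499, 618 and 565 CPM in replicates 1 to 4 labelled Alox15-/- and 610.2, 619, 628 and 659 CPM in replicates 1 to 4 labelled WT. The libraries labelled WT lay within a narrow band and those labelled Alox15-/- spread below and into it, with only replicate 3 inside the WT range. The groups overlapped, with means of 552 ± 51.7 against 629 ± 21.0 CPM as mean ± SD of 4 libraries each (log2 fold change -0.19, 95% interval -0.39 to 0.011, adjusted p = 0.678). Under scaling by library totals alone, the groups of Lck did not overlap. Fyn (ENSMUSG00000019843.14; chromosome 10, 39368855 to 39565381, plus strand), the other Src-family kinase of T cells, was at 154, 135, 112 and 126 CPM in replicates 1 to 4 labelled Alox15-/- and 152, 133, 157 and 159 CPM in replicates 1 to 4 labelled WT. The lowest value was in Alox15-/- replicate 3, the same library that had the highest Lck and Cd3e of its group, and the groups of Fyn overlapped (log2 fold change -0.19, 95% interval -0.43 to 0.049, adjusted p = 0.745).

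The ratio of Lck to Fyn counts was 3.42, 3.68, 5.52 and 4.47 in replicates 1 to 4 labelled Alox15-/- and 4.02, 4.66, 4.00 and 4.13 in those labelled WT. Libraries labelled Alox15-/- lay on both sides of the WT libraries and had a larger SD of the ratio (0.946 against 0.312), a difference in spread that was not tested. The mean log2 ratio was 2.07 in both groups (two-sided exact permutation test of the difference of 0.0014, p = 1.0, adjusted 1.0).

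Ptprc (ENSMUSG00000026395.16; chromosome 1, 138062861 to 138175708, minus strand) encodes CD45, the phosphatase that removes the inhibitory phosphate from LCK. Its level was 567, 458, 429 and 461 CPM in replicates 1 to 4 labelled Alox15-/- and 532, 526, 479 and 595 CPM in replicates 1 to 4 labelled WT. The highest library of each group stood above the other group's mean, and the groups overlapped (log2 fold change -0.16, 95% interval -0.38 to 0.073, adjusted p = 0.787). The isoforms of CD45, which differ in exons near the start of the transcript, cannot be read from counts near its end.

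**Figure D2:**
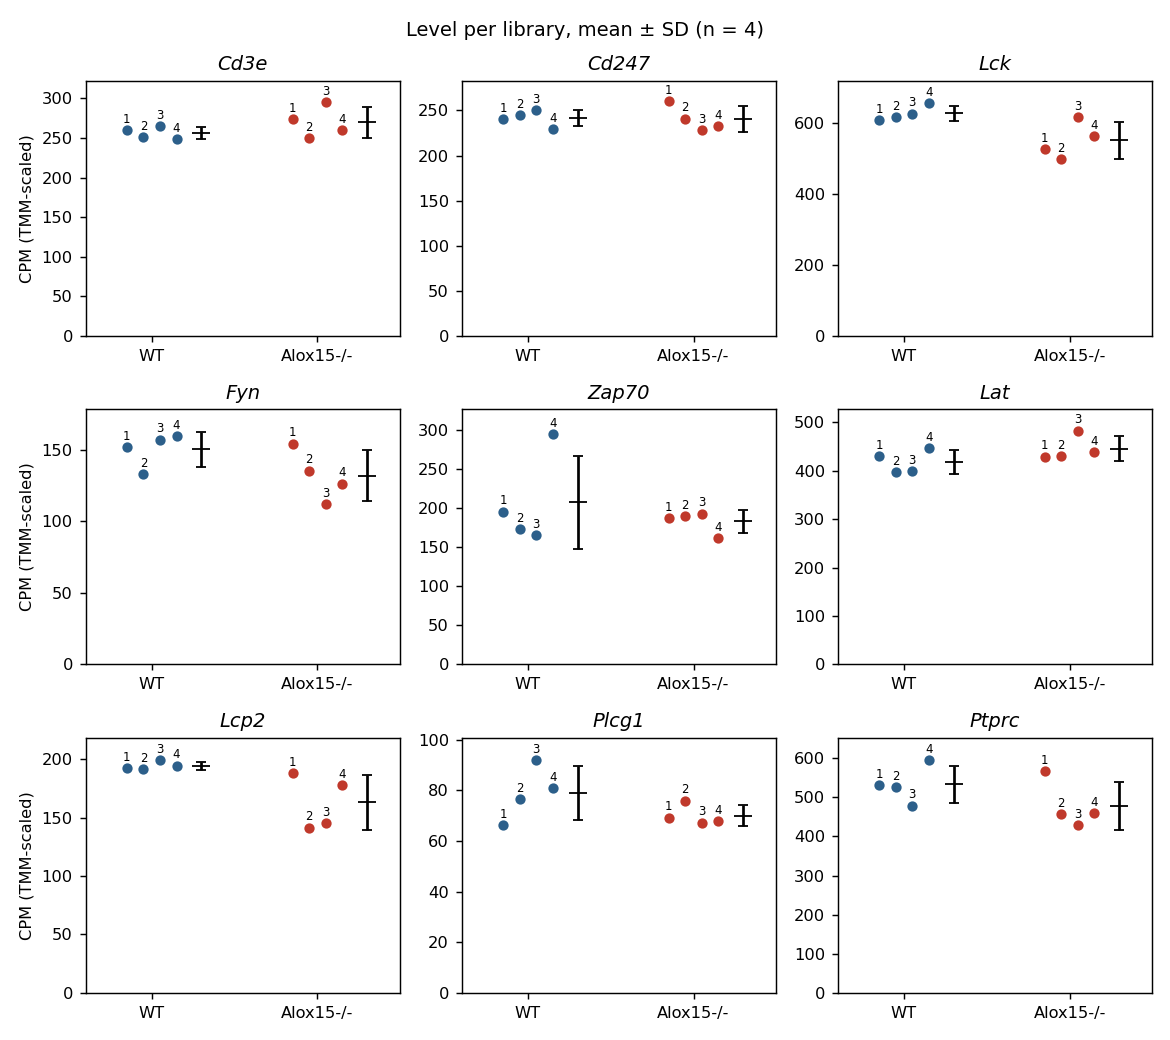
Level of each gene in TMM-scaled CPM (y axes, starting at 0) per library, with blue dots for libraries labelled WT, red dots for those labelled Alox15-/-, replicate numbers above the dots and black bars for mean ± SD (n = 4). Zap70 stands at 295 CPM in WT replicate 4 and between 162 and 196 CPM in the other 7 libraries, and Lcp2 is the one gene whose groups do not overlap.

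Zap70 (ENSMUSG00000026117.10; chromosome 1, 36761798 to 36782818, plus strand) encodes the kinase that docks on the phosphorylated chains. Zap70 was at 187, 191, 193 and 162 CPM in replicates 1 to 4 labelled Alox15-/- and 196, 174, 166 and 295 CPM in replicates 1 to 4 labelled WT. WT replicate 4 was 1.51 times the next highest library, and the other 7 libraries were intermixed. This 1 library set both the spread of the WT group, 183 ± 14.5 against 208 ± 59.8 CPM as mean ± SD of 4 libraries each, and the sign of the estimate (log2 fold change -0.18, 95% interval -0.51 to 0.15, adjusted p = 0.843). Without it the log2 fold change was 0.041 (adjusted p = 0.949), and WT replicates 1 to 3 were at 178 ± 15.7 CPM (SD, n = 3).

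Lat (ENSMUSG00000030742.7; chromosome 7, 126363824 to 126369570, minus strand) encodes the membrane adaptor that ZAP-70 phosphorylates. Lat was at 429, 430.2, 483 and 439 CPM in replicates 1 to 4 labelled Alox15-/- and 431, 397, 399.6 and 447 CPM in replicates 1 to 4 labelled WT. Means were 445 ± 25.6 against 418 ± 24.2 CPM as mean ± SD of 4 libraries each, with 3 of the 4 libraries labelled Alox15-/- inside the WT range (log2 fold change 0.09, 95% interval -0.10 to 0.28, adjusted p = 0.864).

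Lcp2 (ENSMUSG00000002699.13; chromosome 11, 34046920 to 34092295, plus strand) encodes SLP-76, the cytosolic adaptor that joins LAT to PLCγ1 and to the exchange factor VAV1, and lies 36.3 Mb from Alox15 on the same chromosome. As the gene with the smallest p of the 9, its 250 bases before the RefSeq start are printed (GRCm38.p6, chr11:34046678-34046927, plus strand, 5′ to 3′, AGGAAG or CTTCCT in capitals).
Lcp2: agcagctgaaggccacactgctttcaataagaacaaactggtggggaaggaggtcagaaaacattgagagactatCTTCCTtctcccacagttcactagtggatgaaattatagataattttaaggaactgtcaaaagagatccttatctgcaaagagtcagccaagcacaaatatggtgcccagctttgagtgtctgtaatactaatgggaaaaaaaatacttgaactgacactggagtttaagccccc
AGGAAG on either strand occurs 1 time in this window. It was found in 10 of the 13 windows that RefSeq gives for the 9 genes, at least once for 7 genes (all but Fyn and Plcg1), and in 29.5% of all 32851 windows of the same length, where windows of 1 gene can overlap. Of the other motifs searched on either strand, TATAAA was in 1 of the 13 windows (12.4% of all windows), TGTGGT in 2 (14.0%), CAGCTG in 1 (13.0%) and CCGGAAGT in 0 (2.88%). The match of a motif describes these letters only. Not every one of the 13 windows was matched to a transcript of its gene, as given with the processing.

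Lcp2 was at 188, 141, 145 and 178 CPM in replicates 1 to 4 labelled Alox15-/- and 192, 191, 199 and 194 CPM in replicates 1 to 4 labelled WT. All 4 libraries labelled Alox15-/- lay below every library labelled WT, as did those of 2.51% of all genes tested, while 2.74% lay apart the other way and 5.25% in either direction. The gap was narrow, since Alox15-/- replicate 1 was at 188 and the lowest WT library at 191 CPM, and the WT libraries differed by little from each other, with 163 ± 23.3 against 194 ± 3.43 CPM as mean ± SD of 4 libraries each. The log2 fold change of -0.25 (95% interval -0.48 to -0.023) did not pass the threshold (unadjusted p = 0.0332, adjusted p = 0.574), and the groups overlapped under scaling by library totals alone. The low values were those of Alox15-/- replicates 2 and 3, at 141 and 145 CPM. In the same 2 libraries the erythroid markers summed to 3333 and 3508 CPM and the myeloid markers to 330.3 and 194 CPM, against 1109 and 927 CPM and 65.9 and 40.0 CPM in replicates 1 and 4. The eosinophil, platelet, B cell, and NK and γδ T cell sums were also highest of the group in these 2 libraries. The CD8, the T cell and Treg, and the mast cell and basophil sums were not, the last at 184, 332, 154 and 111 CPM in replicates 1 to 4. The part of those cells in the Lcp2 counts was not tested. Alox15-/- replicates 2 and 3 were also the lowest libraries for Lcp2 itself. Leaving both out, a setting chosen after the values were seen, therefore had to bring the estimate closer to 0 (-0.084, adjusted p = 0.939), and this says nothing about those cells. Genes whose log2 CPM followed that of Lcp2 most closely over the 8 libraries were St3gal2 (Pearson r = 0.972), Gtf3c2 (0.967) and Ube2o (0.966), the 3 highest of the genes tested other than the 9. They are given as a description only, since genes read from the same libraries share each library's depth and group.

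The ratio of Lcp2 to Lat counts was 0.438, 0.329, 0.300 and 0.405 in replicates 1 to 4 labelled Alox15-/- and 0.447, 0.481, 0.498 and 0.435 in those labelled WT. The groups overlapped by 1 library, since Alox15-/- replicate 1 lay between WT replicates 4 and 1. The difference of the mean log2 ratio, label Alox15-/- minus label WT, was -0.35 (two-sided exact permutation test, p = 0.0571, adjusted over 3 ratios 0.171).

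Plcg1 (ENSMUSG00000016933.17; chromosome 2, 160731300 to 160775760, plus strand) encodes PLCγ1, the enzyme on which the adaptors converge. Plcg1 was at 69.3, 76.0, 67.3 and 67.8 CPM in replicates 1 to 4 labelled Alox15-/- and 66.3, 76.6, 92.0 and 81.0 CPM in replicates 1 to 4 labelled WT. The lowest and the highest library of all 8 were both labelled WT (log2 fold change -0.18, 95% interval -0.42 to 0.066, adjusted p = 0.773). Plcg1 had the fewest reads of the 9 genes, 280 to 912 per library, for which counting alone gives a coefficient of variation of 5.45% in the libraries labelled Alox15-/- and 4.46% in those labelled WT, beside an observed 5.74% and 13.5%. Plcg1 shares 379 exonic bases with Zhx3 on the opposite strand and Lcp2 shares 282 with 4930469K13Rik, none of them in the last 500 exonic bases of either gene.

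The spread between libraries of a group was small for these genes. The median coefficient of variation was 7.92% in the libraries labelled Alox15-/- and 5.78% in those labelled WT, compared with 14.1% and 14.7% over all genes tested, many of which have fewer reads. No library was high or low for all 9 genes. Alox15-/- replicate 3 was the highest library of its group for Cd3e, Lck, Zap70 and Lat and the lowest for Cd247, Fyn, Plcg1 and Ptprc. WT replicate 4 was the highest of its group for 5 of the 9 genes, Lck, Fyn, Zap70, Lat and Ptprc. Beside Cd247 and Zap70, leaving out 1 library moved an estimate by more than 1.5 times for 5 genes. Without Alox15-/- replicate 3 the log2 fold change was 0.034 for Cd3e, -0.11 for Fyn, 0.054 for Lat and -0.10 for Ptprc. Plcg1 was at -0.086 without WT replicate 3, and Ptprc at -0.095 without WT replicate 4 and -0.25 without Alox15-/- replicate 1.

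**Figure D3:**
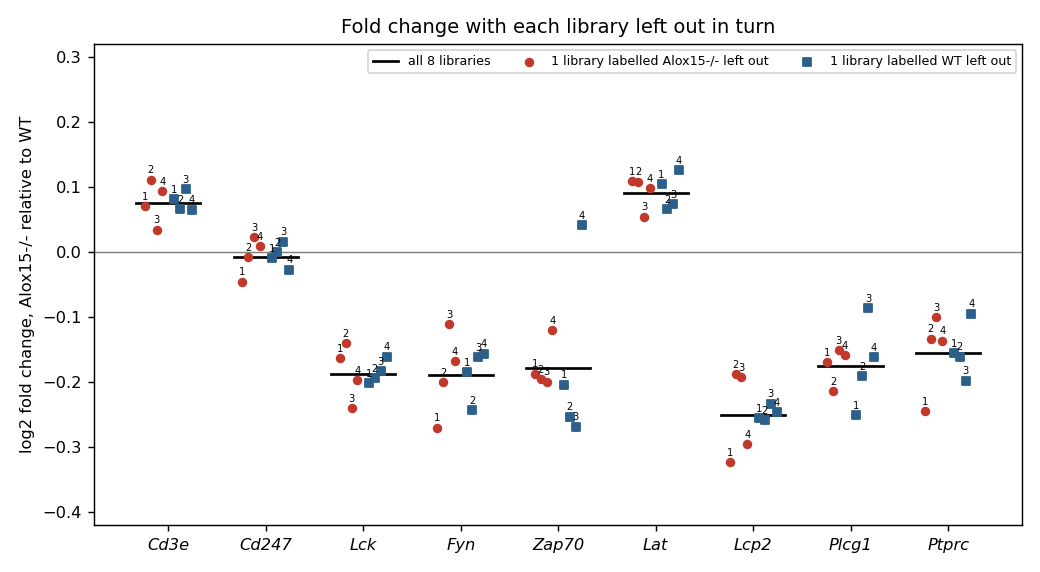
Log2 fold change of each gene (y axis) in the fit on all 8 libraries (black line) and with each library left out in turn (red circles for libraries labelled Alox15-/-, blue squares for WT, numbered by replicate). Zap70 moves from -0.18 to 0.041 without WT replicate 4, Lcp2 stays between -0.32 and -0.19, and Cd247 lies on both sides of 0.

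Other genes of the pathway were taken from 5 lists with 77 genes, of which 74 passed the filter. Some genes had been taken out of these lists after values were seen, for reasons other than their values, so the counts below describe the genes kept and are no result about the pathway as a whole. At an adjusted p under 0.05, 0 of the 74 were called by edgeR, against 1.24% of all genes tested. At an unadjusted p under 0.05 there were 9 of the 74 (4 with higher and 5 with lower values in the libraries labelled Alox15-/-), against 7.84% of all genes tested. The median log2 fold change of the 74 was -0.081. The groups did not overlap for 5 of the 74, Cd4, Trat1 and Dgkz with lower and Cd3g and Sos1 with higher values, beside 5.25% of all genes tested in either direction.

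Among receptor chains, co-receptors and surface co-regulators, 11 of 12 genes were tested and 0 passed the adjusted threshold, with a median log2 fold change of -0.18. The other CD3 chains lay above 0, Cd3g at 0.31, adjusted p = 0.296 and Cd3d at 0.12, adjusted p = 0.83. Cd3g was at 152, 162, 161 and 169.8 CPM in replicates 1 to 4 labelled Alox15-/- and 138, 139.7, 132 and 111 CPM in replicates 1 to 4 labelled WT, so that the groups did not overlap. Cd4, the co-receptor that brings LCK to the complex, had a log2 fold change of -0.32, adjusted p = 0.357. Cd4 was at 297, 209.8, 278 and 289.8 CPM in replicates 1 to 4 labelled Alox15-/- and 329, 334, 328 and 352 CPM in replicates 1 to 4 labelled WT, and all 4 libraries labelled Alox15-/- were below every WT library, the lowest being Alox15-/- replicate 2. Trat1, a membrane adaptor associated with the receptor, had the lowest estimate of the list (-0.49, adjusted p = 0.504), with means of 8.71 ± 0.670 against 12.3 ± 2.38 CPM as mean ± SD of 4 libraries each. Unadjusted p was 0.00742 for Cd3g, 0.0107 for Cd4 and 0.0213 for Trat1.

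Among kinases, phosphatases and ubiquitin ligases, all 14 genes were tested and 0 passed, with a median log2 fold change of -0.054 and 2 genes at an unadjusted p under 0.05, Cblb and Dgkz. The highest estimates were for Tec, a non-receptor tyrosine kinase (0.59, adjusted p = 0.702), and for Cblb, a ubiquitin ligase that restrains TCR signals (0.33, adjusted p = 0.623). The lowest were for Ptpn22, a phosphatase acting on LCK and ZAP-70 (-0.24, adjusted p = 0.702), and for Dgkz, which removes the messenger diacylglycerol made by PLCγ1 (-0.22, adjusted p = 0.608). Dgkz was at 102, 105, 106 and 103 CPM in the libraries labelled Alox15-/- and 112, 117, 139 and 118 CPM in those labelled WT, without overlap.

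Among adaptors and exchange factors, 20 of 21 genes were tested, 0 passed, 2 had an unadjusted p under 0.05 (Gab2 and Dok2), and the median log2 fold change was -0.013. The scaffold gene Gab2 (0.80, adjusted p = 0.449) and the Ras exchange factor gene Sos1 (0.28, adjusted p = 0.695) had the highest estimates, Gab2 at low levels of 4.58 ± 1.23 against 2.52 ± 0.661 CPM as mean ± SD of 4 libraries each. Grap, a relative of GRB2 (-0.31, adjusted p = 0.753), and Dok2, an inhibitory adaptor (-0.29, adjusted p = 0.51), had the lowest. In the calcium, calcineurin, NFAT and NF-κB arms, 15 of 16 genes were tested, 0 passed at either the adjusted or the unadjusted threshold of 0.05, and the median was -0.048. Estimates there ran from -0.32 for Nfatc1 (adjusted p = 0.681) and -0.21 for Orai1, the pore of the calcium channel (adjusted p = 0.872), to 0.084 for Bcl10 (adjusted p = 0.920) and 0.15 for Ppp3ca, a catalytic subunit of calcineurin (adjusted p = 0.875). Without WT replicate 4 these were -0.11 for Nfatc1, 0.16 for Orai1 and 0.024 for Ppp3ca, and among the genes of the other lists -0.14 for Grap and -0.13 for Ptpn22. With each library left out in turn, Ppp3ca ran from 0.024 to 0.27. Without WT replicate 3, Cblb was at 0.21, Dgkz at -0.15, Cd3d at 0.059 and Bcl10 at -0.0086, and without Alox15-/- replicate 2 Grap was at -0.15.

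**Figure D4:**
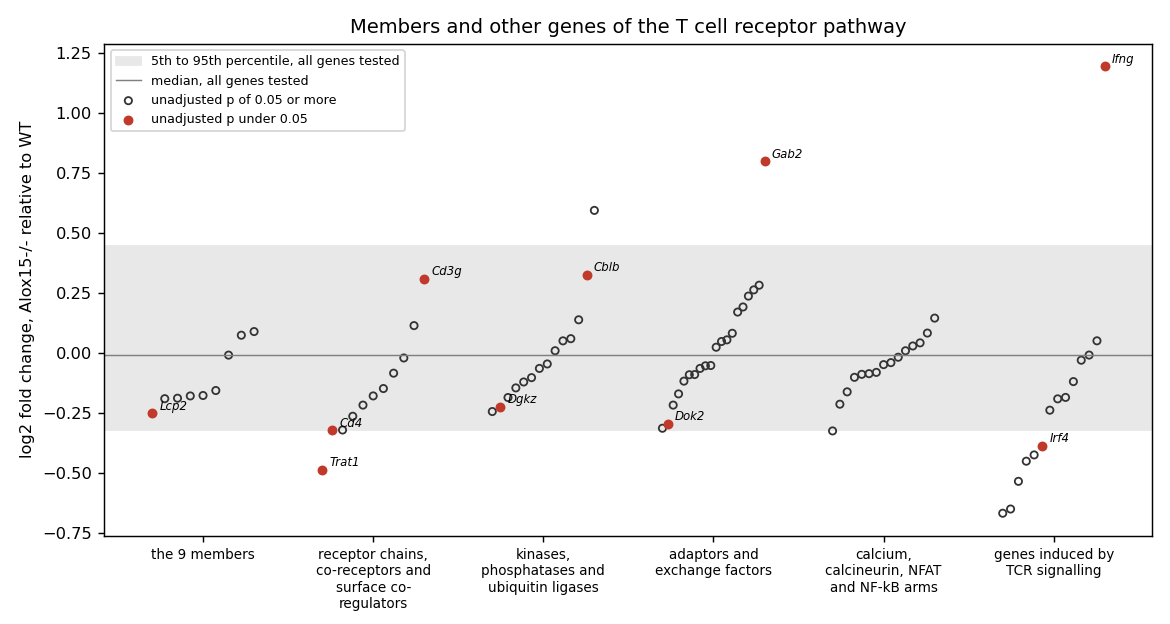
Log2 fold change (y axis, label Alox15-/- over label WT) of the 9 genes and of 5 lists of other pathway genes, 1 dot per gene in rising order, with filled red dots at an unadjusted p under 0.05 and a grey band from the 5th to the 95th percentile of all genes tested (-0.32 to 0.45). Among the genes kept in the lists, 11 of 74 dots lie outside the band, 7 of them among the 14 induced genes, where 10% of all genes tested do by its construction, and 0 passed the adjusted threshold.

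The last list holds genes that TCR signals induce. The cultures also held IL-2, TGF-β and antibodies to CD28, so the levels of these genes need not come from TCR signals alone. All 14 listed genes were tested and 0 passed the adjusted threshold, 2 had an unadjusted p under 0.05 (Irf4 and Ifng), 12 lay below 0 and 2 above, beside 51.8% of all genes tested below 0, and the median log2 fold change was -0.21. With limma-voom 9 lay below 0 (median -0.11) and with the replicate number as a block 10 (median -0.12). Without WT replicate 3 the median was -0.38, without WT replicate 1 -0.32 and without Alox15-/- replicate 1 -0.34. The lowest estimates were for the transcription factor gene Egr3 (-0.67, adjusted p = 0.729) and for Il2 (-0.65, adjusted p = 0.838), and the highest were for Nr4a2 (0.052, adjusted p = 0.993) and Ifng (1.20, adjusted p = 0.385). Without WT replicate 4, Egr3 was at 0.016, Il2 at 0.73 and Nr4a2 at 1.12. Egr3 was at 88.1, 48.9, 55.4 and 49.5 CPM in replicates 1 to 4 labelled Alox15-/- and 78.2, 61.7, 40.3 and 207 CPM in replicates 1 to 4 labelled WT, and WT replicate 4 lay far above every other library. Il2 was at 73.1, 33.7, 76.8 and 67.0 CPM in replicates 1 to 4 labelled Alox15-/- and 43.1, 39.6, 31.9 and 288 CPM in replicates 1 to 4 labelled WT, with the same library on top. Ifng was at 21.7, 10.6, 9.46 and 5.18 CPM in replicates 1 to 4 labelled Alox15-/- and 4.55, 6.57, 2.02 and 7.77 CPM in replicates 1 to 4 labelled WT, where Alox15-/- replicate 1 was highest and the groups overlapped. Without that library the log2 fold change of Ifng was 0.71.

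WT replicate 4 had the highest level of all 8 libraries for 11 of these 14 genes, and it was also the library with the highest Zap70. Among the libraries labelled Alox15-/-, replicate 1 was the highest for 12 of the 14. Without WT replicate 4, 4 of the 14 genes lay below 0 in place of 12, and their median log2 fold change was 0.17. The sign of that median and of the Zap70 estimate turned without this 1 library. Without the filter on low counts edgeR called 7 of these 14 genes with all libraries kept, 6 with lower values (Nr4a1, Nr4a3, Egr1, Egr3, Irf4 and Il2) and 1 with higher (Ifng). In that fit 1.37% of all 28239 symbols were called, 1.06% higher and 0.319% lower, and 0 of the 9 proximal genes were among them. The cause of these added calls was not tested. Of the genes called lower, Nr4a1 (0.049), Egr1 (0.25), Egr3 and Il2 lay above 0 without WT replicate 4 in the fit with the filter.

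**Figure D5:**
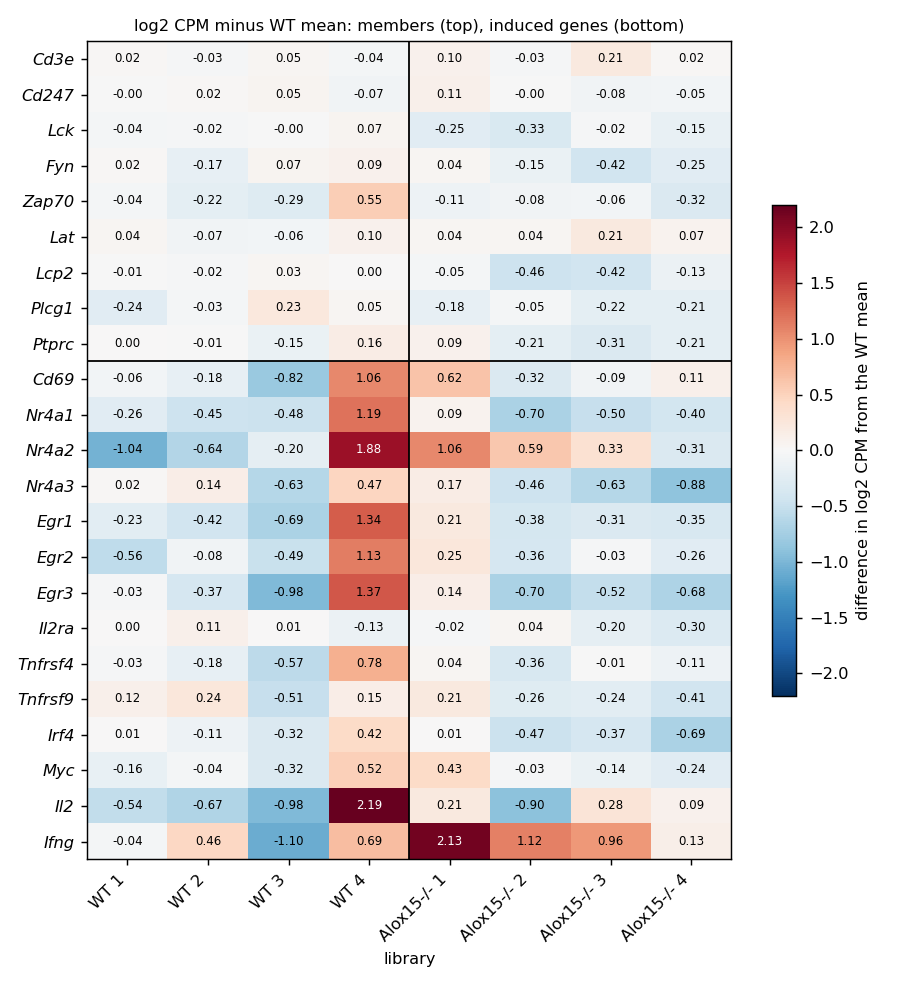
Difference of each library's log2 CPM from the mean of the WT libraries (color and printed value) for the 9 genes above the line and 14 genes induced by TCR signals below it, with libraries labelled WT at the left and Alox15-/- at the right. WT replicate 4 is the highest library for 11 of the 14 induced genes, among them Il2 at 2.19 above the WT mean, while the 9 genes lie between -0.46 (Lcp2 in Alox15-/- replicate 2) and 0.55 (Zap70 in WT replicate 4).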

How the data were processed

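Tregs of WT and Alox15-/- mice were profiled on day 2 by MACE-seq, which counts tags near the 3′ ends of transcripts, on an Illumina NextSeq500. The deposited values are raw counts for each gene symbol, not normalized, in 4 libraries per group. Reads had been cleaned and trimmed per the labels, and the submitters' processing notes name Bowtie, edgeR and GRCm38. The counting tool, the annotation, the use of strand and the removal of duplicates are not given in the sources used here, and the methods name a MACE-Seq kit where the labels name a small RNA kit. Columns were assigned to libraries by name.

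A symbol entered the tests if 4 or more libraries reached 2 CPM, which left 12700 of 28239 symbols. Groups were compared with edgeR 4.0.16 in R 4.3.3 (TMM, glmQLFit and glmQLFTest, two-sided, group as the only term), with Benjamini–Hochberg adjustment over all genes tested and a threshold of 0.05. The standard error was the log2 fold change divided by the square root of F. Intervals used the t distribution with the total degrees of freedom of the fit. Adjusted p-values in the text are from this fit unless another tool is named. Ratios of counts within a library were compared with exact permutation tests (scipy 1.17.1). The biological coefficient of variation between libraries was 14.5%, and each of the 9 genes had 280 counts or more in every library. Replicates were compared with each other and none agreed within sampling noise.

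Gene positions are from GENCODE M21 (GRCm38) and promoter windows from RefSeq (GRCm38.p6), in which all 9 genes were found by symbol. The bases that follow each start were looked for in the protein-coding GENCODE transcripts of the gene. They were found for every window of Cd247, Lck, Fyn, Lcp2 and Ptprc and for 1 of the 3 windows of Zap70. For the window of Cd3e, of Lat and of Plcg1 they were not found. The last 500 bases of each transcript were compared with all transcripts by blastn 2.17.0 (90% identity or more, 100 bases or more), and matches in other genes were found for Cd247 (Pou2f1) and Plcg1 (Gm27206), both overlapping on the opposite strand. The steps were tested on simulated data.

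The 9 genes, the pathway lists and the marker lists were chosen with earlier results of these data known. Named are all 9 genes, Alox15, and from each pathway list the genes past the threshold and the 2 highest and 2 lowest estimates; Irf4, Nr4a1, Nr4a3 and Egr1, and the motifs, were chosen after values were seen. Listed genes outside the tests were Shb and Ppp3r1, below the filter, and Lime1, which had no row by this symbol. Alternatives were other scalings (DESeq2 size factors, upper quartile, library totals), other filters, robust edgeR, DESeq2 1.42.0, limma-voom (limma 3.58.1), the replicate number as a block, and each library left out in turn. Some pathway genes are not reported here and were left out of the lists after the values were seen, for reasons other than their values. Other data of the study were not analysed here.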

Additional observations from a re-analysis of the deposited data

Results flagged for a closer look

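In 66 groups of 4 libraries (the 9 genes, Alox15, 20 pathway genes and 3 ratios, in each label), 3 held a library whose gap to the nearest of the others exceeded Dixon's 95% critical value of 0.829 times the range of the group on the log2 scale. Chance gives about 1 such group in 20, and 3 of 66 is near that share. The 20 pathway genes had been picked for the highest or lowest estimates of their lists, which 1 outlying library can shift. The groups found are therefore given as a description only. Il2, the growth factor of activated T cells, was at 288 CPM in WT replicate 4, above the other WT libraries (gap of 0.863 of the range), and at 33.7 CPM in Alox15-/- replicate 2, below the others of its group (gap of 0.835 of the range). Cblb was at 41.2 CPM in WT replicate 3, below the other WT libraries (gap of 0.895 of the range). None of the 9 proximal genes was found by this measure, and for Zap70 in WT replicate 4 the gap was smaller than the critical value.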

How the results depend on the processing

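The 9 proximal genes held 0 calls under each alternative that was run, the smallest adjusted p in any of them being 0.407 (edgeR, Lcp2, without Alox15-/- replicate 1). Of 162 alternative values of their fold changes, 156 kept the direction and 6 did not, and these were Cd247 and Zap70. Cd247 turned to 0.020 with the upper quartile and to 0.029 with Alox15-/- replicates 2 and 3 both left out (added after seeing the data), and ran from -0.046 to 0.023 with each library left out in turn. Zap70 ran from -0.27 to 0.041. The median of the 9 was -0.084 with both of those libraries left out and -0.19 to -0.095 with each left out in turn. The number of genes called among all tested was 388 without the filter, 60 with both libraries left out, and 86 to 172 with each left out, with 95, 86, 93 and 105 without Alox15-/- replicates 1, 2 and 3 and WT replicate 2, against 158 with all 8. Pathway lists held 7 calls without the filter and 0 otherwise, and the cause was not tested. With each library left out, log2 fold changes lay on both sides of 0 among the named pathway genes for Bcl10 (-0.0086 to 0.17), Egr1 (-0.64 to 0.25), Nr4a1 (-0.71 to 0.049), Egr3 (-0.93 to 0.016), Il2 (-0.95 to 0.73), Nr4a2 (-0.26 to 1.12) and Orai1 (-0.36 to 0.16), and limma-voom gave Il2 at 0.030. The difference in the log2 ratio of Lck to Fyn was -0.0044 with a pseudocount of 10, -0.10 with both libraries left out and -0.13 to 0.10 with each left out. With 1 gene whose groups did not overlap under each scaling, that gene was Lcp2 under TMM, DESeq2 size factors and the upper quartile, and Lck under library totals.

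The replicate numbers did not pair the libraries: deviations of same-numbered libraries correlated at 0.069, 0.17, -0.18 and -0.018. Of the libraries labelled Alox15-/-, only replicate 2 correlated best with the WT library of its own number. With the replicate number as a block, 0 of the 9 genes and 146 of all genes were called, and the median was -0.16. The exact sign-flip test over same-numbered libraries gave p = 0.375 for Cd247 to Cd3e, 1.0 for Lck to Fyn and 0.125 for Lcp2 to Lat, where 0.125 is the smallest p that 4 pairs allow. With 4 libraries a group, differences within the intervals given above cannot be resolved.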
